A study of Homo sapiens with 6 samples.

Results

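The E2F transcription factors and their DP partners were followed in RNA-seq counts of LNCaP cells, an established human prostate cancer line, with and without knockdown of RB. The members were the rows of the deposited count table whose Ensembl transcript ID maps in GENCODE release 29 to E2F1 to E2F8, TFDP1 or TFDP2. All 10 genes had 1 row each, of 22279 rows in all, and all 10 passed the filter on low counts that left 11712 rows tested. The tested libraries were 3 of cells carrying a hairpin against RB (shRB), set against 3 of cells carrying a control hairpin (shCON). Every cell population, shCON included, had 72 h of a treatment that the labels call CDT and list under cell cycle arrest, and the series describes the condition as deficient in hormone. The labels name 1 hairpin per group. Nothing in them says that replicates came from separate cultures, and the p-values therefore measure only the spread between these libraries, which may be technical.

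E2F proteins bind promoters of genes for S phase entry, DNA replication and mitosis, and most do so as dimers with a DP protein. In resting cells the retinoblastoma protein and its relatives p107 and p130, together called pocket proteins, hold E2Fs and silence these promoters. Phosphorylation of the pocket proteins by cyclin-dependent kinases, or loss of RB, frees the activator E2Fs. E2F1, E2F2 and E2F3 are the activators, E2F4 and E2F5 are repressors that mostly partner p107 and p130, E2F6 represses without pocket proteins, and the atypical E2F7 and E2F8 bind DNA without a DP partner and shut E2F targets off later in the cycle.

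The knockdown and the cell identity were checked first. RB1 mRNA was 5.82, 3.82 and 5.41 CPM in shRB and 56.5, 52.7 and 54.7 CPM in shCON. CPM is counts scaled to a common library total, after each total was multiplied by its normalization factor (TMM). Total counts were 9780579 to 10898768 in shRB and 6115310 to 20091488 in shCON. The summed level of 8 prostate luminal markers was 3893 to 4352 CPM in shRB and 4058 to 4303 CPM in shCON. The leukocyte genes PTPRC and CD3E and the endothelial genes PECAM1 and CDH5 had no count in any library. CD14, the remaining gene of the leukocyte list, had 3, 1 and 0 counts in shRB and 3, 0 and 2 counts in shCON. The basal list, 3 genes, summed to at most 0.11 CPM in shRB and to 0.30 to 0.64 CPM in shCON, with KRT5 at 0 in every library and KRT14 at 0, 1 and 0 counts in shRB and 13, 3 and 3 counts in shCON. The stromal list, 4 genes, summed to 20.2 to 24.4 CPM in shRB and 40.0 to 47.5 CPM in shCON, mostly VIM and COL1A1, with COL1A2 at 0 in every library. The part of these levels in the results was not tested. Libraries also differed in base composition within their groups. The deviation of a library from its group mean, ranked against transcript GC content over 11674 genes that are not independent, gave Spearman coefficients of -0.50, 0.69 and -0.54 for shRB 1 to 3 and of -0.51, 0.52 and -0.09 for shCON 1 to 3.

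Several E2F genes are textbook targets of E2F proteins themselves, so the stretches before the transcription starts of members that carry an E2F-like motif are shown, with that of E2F7, which carries none. They are RefSeq sequences of build GRCh38.p14, 250 bases up to the start, 5′ to 3′ on the gene's strand, for E2F1 (chr20:33686386-33686635, minus strand), E2F2 (chr1:23531234-23531483, minus), E2F3 (chr6:20401629-20401878, plus), TFDP1 (chr13:113584503-113584752, plus) and E2F7 (chr12:77065570-77065819, minus). Capitals mark any of the 8-base motifs TTTCCCGC, TTTCGCGC, TTTGCCGC and TTTGGCGC, read on either strand.
E2F1: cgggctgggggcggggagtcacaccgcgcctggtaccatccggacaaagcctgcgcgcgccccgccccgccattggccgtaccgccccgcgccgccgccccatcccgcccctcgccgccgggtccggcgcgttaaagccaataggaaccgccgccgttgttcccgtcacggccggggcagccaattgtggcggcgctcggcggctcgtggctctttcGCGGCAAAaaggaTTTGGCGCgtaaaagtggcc
E2F2: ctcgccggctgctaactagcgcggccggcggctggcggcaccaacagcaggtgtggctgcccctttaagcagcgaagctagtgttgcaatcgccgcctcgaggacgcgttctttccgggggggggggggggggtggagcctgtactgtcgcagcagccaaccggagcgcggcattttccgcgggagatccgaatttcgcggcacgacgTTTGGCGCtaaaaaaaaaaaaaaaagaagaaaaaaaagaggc
E2F3: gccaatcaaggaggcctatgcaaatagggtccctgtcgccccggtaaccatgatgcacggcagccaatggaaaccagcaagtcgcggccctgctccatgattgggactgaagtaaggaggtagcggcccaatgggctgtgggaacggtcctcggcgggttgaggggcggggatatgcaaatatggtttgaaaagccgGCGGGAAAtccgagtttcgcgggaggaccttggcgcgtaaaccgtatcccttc
TFDP1: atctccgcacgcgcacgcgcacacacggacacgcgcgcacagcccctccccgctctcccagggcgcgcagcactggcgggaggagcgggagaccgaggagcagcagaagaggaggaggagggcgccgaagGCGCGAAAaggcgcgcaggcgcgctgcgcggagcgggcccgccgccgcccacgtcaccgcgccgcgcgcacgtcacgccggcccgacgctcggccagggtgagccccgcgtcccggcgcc
E2F7: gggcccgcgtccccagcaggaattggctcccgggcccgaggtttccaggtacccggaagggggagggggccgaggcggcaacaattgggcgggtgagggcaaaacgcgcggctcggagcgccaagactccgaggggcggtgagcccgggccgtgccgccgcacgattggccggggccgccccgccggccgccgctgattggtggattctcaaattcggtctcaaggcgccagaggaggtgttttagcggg

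E2F1 held a pair of motifs, beginning 33 and 20 bases before the start, and E2F2 held 1 at 42 bases, E2F3 1 at 53 bases and TFDP1 1 at 120 bases. Of 35116 such windows in the table, 2.79% held at least 1 of these motifs. The windows of 8 members were searched, E2F5 and E2F8 not being among them. No match was found in the windows of E2F4, E2F6, E2F7 or TFDP2, nor at the second annotated start of E2F3. The CCAAT box, read on either strand, occurred 3 times before E2F1, 4 times before E2F3, 4 times before E2F7 and 2 times before the first start of TFDP2, and was in 32.0% of all windows. The TTTGAA element found in promoters of mitotic genes occurred before E2F3 and before the 2 later starts of TFDP2 and in 13.3% of all windows. No match overlapped another. The start of the counted transcript lay within 19 bases of the window's start site for E2F1, E2F2, E2F4, E2F6, E2F7 and TFDP1 and 288 bases from it for E2F3, whereas for TFDP2 the nearest of 3 was 28273 bases away.

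In shRB cells 4 of the 10 members were higher than in shCON cells and 0 were lower. They were the activators E2F1 and E2F2 and both atypical E2Fs, E2F7 and E2F8, with fold changes of 1.44 to 1.95. E2F3, E2F4, E2F5, E2F6, TFDP1 and TFDP2 were not called. The calls came from the edgeR quasi-likelihood test fitted over all tested genes, at a Benjamini-Hochberg adjusted p under 0.05, by which 12.8% of all tested genes were higher and 12.5% lower. In bulk RNA, more cells in the phase that expresses a gene and more mRNA per cell cannot be told apart.

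**Figure D1:**
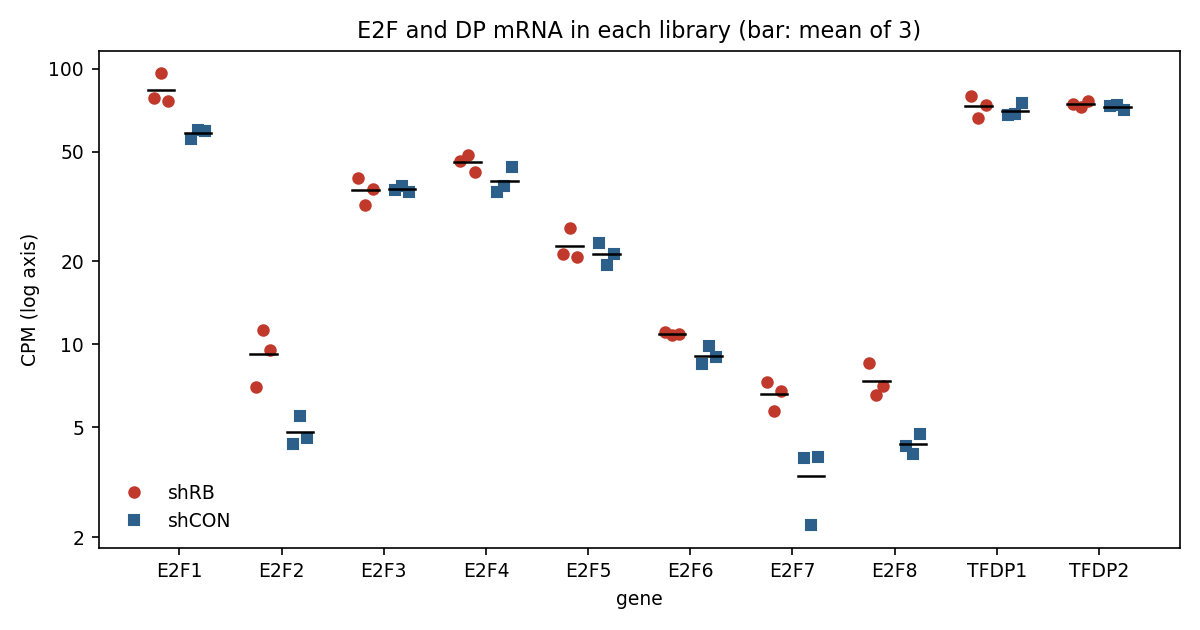
Level of each E2F and DP gene in each library, in CPM on a log axis, with shRB (circles) left of shCON (squares) and a bar at the mean of 3 libraries. E2F1, E2F2, E2F6, E2F7 and E2F8 show no overlap between groups, whereas the other 5 genes overlap. Of all tested genes, 21% had no overlap with shRB higher, and 41.1% had none in either direction.

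Among the activators, E2F1, the member that can drive both S phase entry and apoptosis, read 78.3, 96.2 and 76.5 CPM in shRB libraries 1 to 3 and 55.6, 59.8 and 59.4 CPM in shCON libraries 1 to 3. The lowest shRB library lay above the highest shCON library. The log2 fold change was 0.52 ± 0.10 (SE, n = 3 each; edgeR adjusted p = 0.0016), with a 95% interval of 1.24 to 1.66 for the fold. E2F2, its close relative, read 7.0, 11.2 and 9.56 CPM in shRB and 4.37, 5.52 and 4.57 CPM in shCON. Here too the groups did not overlap, although shRB 1 was much closer to the controls than shRB 2 was. The log2 fold change of E2F2 was 0.95 ± 0.19 (SE, n = 3 each; edgeR adjusted p = 0.0029), on 77 to 106 counts per shRB library and 28 to 89 per shCON library.

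E2F3, the third activator, behaved otherwise. Its levels were 40.0, 32.1 and 36.6 CPM in shRB and 36.3, 37.6 and 35.7 CPM in shCON, and the shCON values lay inside the shRB range. The log2 fold change was -0.01 ± 0.10 (SE; edgeR adjusted p = 0.95), with a 95% interval of 0.85 to 1.15 for the fold. The upper end of that interval is below the lower end for E2F1, but the difference between these genes was not itself tested. The gene has a second start that yields a shorter protein, E2F3b, often placed with the repressors, and the single row of the table does not separate the products.

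Of the repressors, E2F4, the main E2F of resting cells and a DNA-binding part of the DREAM complex, averaged 45.8 ± 3.33 CPM in shRB and 39.1 ± 4.40 CPM in shCON (SD, n = 3 each). Its libraries read 46.4, 48.8 and 42.2 CPM in shRB and 35.7, 37.6 and 44.1 CPM in shCON, so shCON 3 lay inside the shRB range. The log2 fold change of 0.24 ± 0.10 (SE) did not pass (edgeR adjusted p = 0.11), but it passed in the fit with the replicate number as a block (0.25, edgeR adjusted p = 0.036). E2F5, which partners p130, read 21.3, 26.4 and 20.8 CPM in shRB and 23.4, 19.5 and 21.2 CPM in shCON. The groups overlapped, with a log2 fold change of 0.08 ± 0.12 (SE; edgeR adjusted p = 0.68) and a 95% interval of 0.88 to 1.27 for the fold. The counted E2F5 transcript shares 443 exon bases with C8orf59 on the opposite strand, so its count is uncertain.

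E2F6, which lacks the pocket-binding and activating parts of other E2Fs and represses as a member of the Polycomb complex PRC1.6, read 11.1, 10.8 and 10.9 CPM in shRB and 8.48, 9.84 and 8.98 CPM in shCON. All shRB libraries lay above all shCON libraries. Of all tested genes, 21% separated in this direction and 41.1% in either, and the log2 fold change of 0.28 ± 0.13 (SE) did not pass (edgeR adjusted p = 0.14). Processed pseudogenes are annotated for E2F3, E2F4 and E2F6, with which these genes may share reads.

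The atypical E2Fs were, with E2F2, the members of fewest counts. E2F7 read 7.28, 5.72 and 6.76 CPM in shRB and 3.87, 2.21 and 3.92 CPM in shCON, with shCON 2 low at 22 counts. Its log2 fold change was 0.97 ± 0.21 (SE, n = 3 each; edgeR adjusted p = 0.0043), with a 95% interval of 1.43 to 2.67 for the fold, and was 0.77 without shCON 2 (edgeR adjusted p = 0.018). E2F8, which acts beside E2F7 on many of the same promoters, read 8.55, 6.57 and 7.05 CPM in shRB and 4.27, 4.01 and 4.73 CPM in shCON. The log2 fold change of E2F8 was 0.79 ± 0.17 (SE, n = 3 each; edgeR adjusted p = 0.0039), and the groups of either gene did not overlap.

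The DP partners were not called. TFDP1 encodes DP1, the usual partner of the activators, and read 80.0, 66.0 and 73.8 CPM in shRB and 68.1, 68.5 and 75.1 CPM in shCON. TFDP2, which encodes DP2, read 74.8, 72.8 and 76.5 CPM in shRB and 73.0, 73.7 and 70.8 CPM in shCON. For both genes the groups overlapped. Their log2 fold changes were 0.06 ± 0.09 and 0.04 ± 0.08 (SE; edgeR adjusted p = 0.66 and 0.73), and the 95% intervals of the fold ran from 0.91 to 1.19 for TFDP1 and from 0.92 to 1.15 for TFDP2. TFDP1 lies on chromosome 13, as RB1 does, where the median log2 fold change over 200 tested genes was -0.06.

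**Figure D2:**
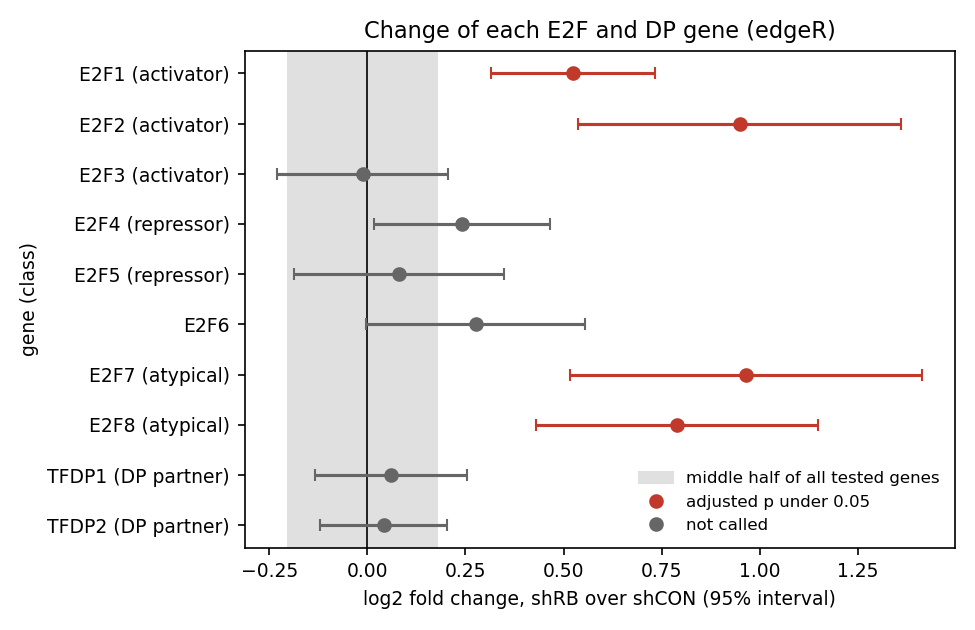
Log2 fold change of shRB over shCON with its 95% interval for each gene (edgeR), named with its class. Filled red points passed an adjusted p of 0.05, and the shaded band spans the interquartile range of all tested genes, -0.20 to 0.18. E2F1, E2F2, E2F7 and E2F8 lie to the right of the band with their whole intervals.

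Set among all 11712 tested genes by log2 fold change, E2F7 ranked 175, E2F2 183, E2F8 255 and E2F1 631 from the top, and E2F6 ranked 1806 and E2F4 2136. The median log2 fold change of the 10 members was 0.26, and that of all tested genes was -0.01. The 3 members with the largest fold changes were among the least abundant, with mean expression at the 14.7th (E2F7), 16.4th (E2F8) and 18.7th (E2F2) percentile of tested genes, whereas E2F1 was at the 71.0th. The median log2 fold changes of all tested genes on the members' own chromosomes were -0.02 on 20 (E2F1), 0.03 on 1 (E2F2), -0.02 on 12 (E2F7) and 0.03 on 11 (E2F8), each well under that of the member. The TFDP2 chromosome, 3, had a median of 0.15.

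Base composition moved with part of the spread inside shRB. The transcripts of E2F1, E2F4 and E2F2 had 62.5%, 58.1% and 57.5% GC, and each was highest in shRB 2. The other members had 43.1% to 46.6% GC, and E2F3, E2F6, E2F7, E2F8, TFDP1 and TFDP2 were each lowest in shRB 2, E2F5 being the exception. With an offset for GC content, chosen after seeing the data, the log2 fold changes were 0.48 for E2F1, 0.89 for E2F2, 1.00 for E2F7 and 0.83 for E2F8, and the same 4 members passed (edgeR adjusted p of at most 0.00044). Without shRB 2 they were 0.43, 0.80, 1.05 and 0.87 in the same order, and all passed (edgeR adjusted p of at most 0.00035). More genes passed in these 2 fits at large: 2308 were higher with the GC offset and 2074 without shRB 2, against 1499 in the fit as reported. The lower adjusted p-values are therefore not particular to the members.

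Levels of different genes were compared per kilobase of the counted transcript. In shRB the order was E2F1 (33.4 ± 4.37 CPM per kilobase), TFDP1 (27.7 ± 2.63), E2F4 (21.8 ± 1.59), E2F5 (12.1 ± 1.65), TFDP2 (8.0 ± 0.19), E2F3 (7.63 ± 0.84), E2F6 (3.40 ± 0.05), E2F8 (2.15 ± 0.30), E2F2 (1.79 ± 0.41) and E2F7 (1.15 ± 0.14; SD, n = 3 for all). The ranges of TFDP2 and E2F3 overlapped, as did those of E2F8 and E2F2, and the other neighbours did not. In shCON the order differed at the top, where TFDP1 (26.6 ± 1.48) stood above E2F1 (23.3 ± 0.94), with no overlap, and was the same below. TFDP2 and E2F3 (7.77 ± 0.16 and 7.70 ± 0.20) were the only neighbours of the shCON order whose ranges overlapped. TFDP2 depends most on the annotated length, since its counted transcript is 9335 bases long. The part of each transcript that the authors counted is not given in the sources used here.

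**Figure D3:**
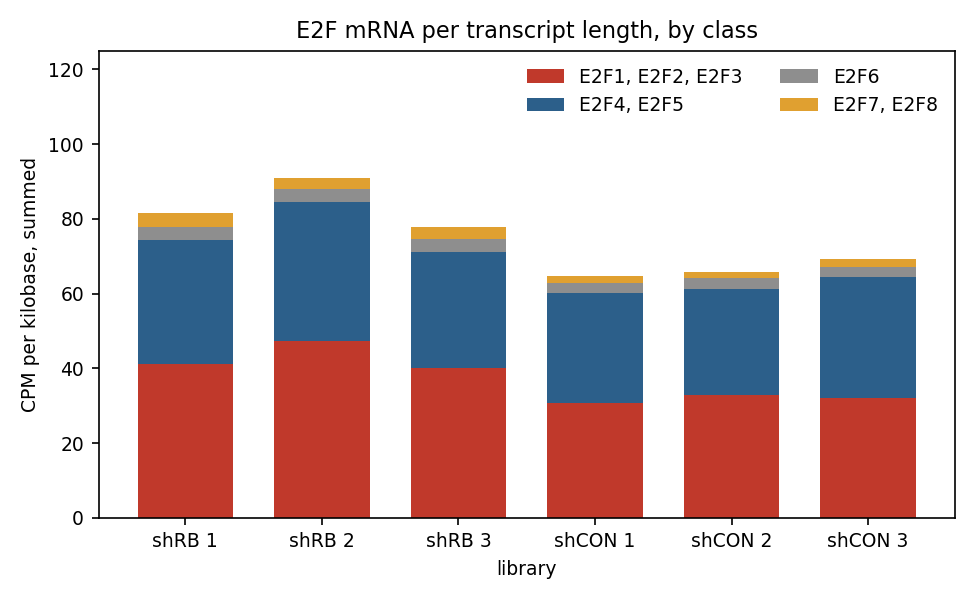
Summed CPM per kilobase of the E2F genes in each library, stacked by class: E2F1 to E2F3 at the bottom, then E2F4 and E2F5, E2F6, and E2F7 and E2F8. The shRB bars reach 77.8 to 90.9 and the shCON bars 64.6 to 69.3.

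Summed over the 8 genes, E2F mRNA was 83.5 ± 6.71 CPM per kilobase in shRB and 66.6 ± 2.41 in shCON (SD, n = 3 each), and the groups did not overlap. The activators made up 50.3%, 52.1% and 51.5% of that sum in shRB and 47.5%, 50.01% and 46.4% in shCON. E2F1 by itself made up 38.3% to 42.3% in shRB and 34.3% to 36.3% in shCON. E2F4 and E2F5 made up 40.0% to 41.0% in shRB and 43.0% to 46.6% in shCON, while their summed level was 33.9 ± 3.09 CPM per kilobase in shRB and 29.97 ± 2.06 in shCON, with overlap. The atypical pair held 3.20% to 4.6% in shRB and 2.36% to 2.98% in shCON, and E2F6 3.70% to 4.36% in shRB and 4.03% to 4.65% in shCON. All of these shares separated the groups except that of E2F6. They are parts of the same sum, so a larger share of E2F1 lowers the rest, and they do not separate independently. The activator share separated only narrowly, by 50.3% in shRB 1 against 50.01% in shCON 2. The E2F1 share was highest in shRB 2 (42.3%) and shCON 2 (36.3%), the libraries whose deviations rose with GC content. The summed DP level was 35.7 ± 2.75 CPM per kilobase in shRB and 34.4 ± 1.33 in shCON, so the DP level per unit of E2F was 0.43 ± 0.06 in shRB and 0.52 ± 0.003 in shCON, with shRB 2 lowest at 0.36. These sums were not tested, as they are made of the members described above.

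Whether members differed in their response was tested on the log2 ratio of their counts within a library, in which library scaling cancels. The leaning of a library in GC content does not cancel where the members of a pair differ in GC content. E2F1 had 62.5% GC, against 44.3% for E2F6 and 43.1% for E2F7. Between the groups, the E2F1 to E2F4 ratio was 0.86 ± 0.11 in shRB and 0.58 ± 0.13 in shCON (SD, n = 3 each), a difference of 0.28 ± 0.10 (SE) with no overlap. The E2F1 to E2F6 ratio was 2.92 ± 0.20 in shRB and 2.67 ± 0.07 in shCON, a difference of 0.25 ± 0.12 (SE), also with no overlap, and of 0.14 without shRB 2. For both, the exact two-sided permutation test gave p = 0.1, the smallest that 3 against 3 libraries allow, and 0.25 after adjustment over 5 pairs. The other 3 pairs overlapped. The E2F1 to E2F7 ratio was 3.66 ± 0.35 in shRB and 4.15 ± 0.50 in shCON (exact permutation p = 0.3), a difference of -0.50, and of -0.21 without shCON 2. The E2F7 to E2F8 ratio was -0.16 ± 0.09 in shRB and -0.42 ± 0.38 in shCON (exact permutation p = 0.4), a difference of 0.26, and of 0.04 without shCON 2. The TFDP1 to TFDP2 ratio was -0.03 ± 0.12 in shRB and -0.04 ± 0.11 in shCON (exact permutation p = 0.9). With 3 against 3 libraries this permutation test cannot go below 0.1, so none of the pairs could pass a p of 0.05 in it.

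Genes most like each called member were found by the root mean square difference between log2 CPM profiles over the 6 libraries, each centred on its own mean, among 9985 genes of at least 5 CPM. For E2F1 the nearest were LY6E (0.03 on the log2 scale), REEP4 (0.03) and HDGF (0.03). For E2F2 they were IQGAP3 (0.12), NEURL1B (0.12) and CKMT1B (0.12), the last of which has a near-identical copy and an uncertain count. For E2F8 they were CDCA4 (0.09), HTATIP2 (0.09) and ST8SIA4 (0.09). For E2F7 the nearest genes with a name were ZNF502 (0.16) and NIPSNAP3A (0.19), farther off than for the other members. E2F7 had 22 to 80 counts per library and E2F1 had 364 to 1133. The part of counting noise in these distances was not tested.

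The other genes of the pathway moved unevenly. Of the textbook E2F targets of G1/S and DNA replication, 21 of 25 listed genes had a row and were tested, and 18 were higher, 0 lower and 3 not called in shRB, with a median log2 fold change of 0.59, against 12.8% higher among all tested genes. The smallest p belonged to MCM2, a subunit of the replicative helicase (0.85 ± 0.07), CDC25A, a phosphatase that activates cyclin-dependent kinases (0.99 ± 0.11), and the thymidine kinase gene TK1 (0.82 ± 0.09; log2 fold change ± SE, edgeR adjusted p of at most 2.8e-05). Of the called members, E2F2 (0.95), E2F7 (0.97) and E2F8 (0.79) had log2 fold changes above the list's median and E2F1 (0.52) below it, differences that were not tested.

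Pocket proteins other than RB did not pass. RBL1, which encodes p107 and is itself a known E2F target, was 17.6 ± 3.53 CPM in shRB and 16.1 ± 2.03 CPM in shCON, and RBL2, which encodes p130, was 110.8 ± 18.8 CPM in shRB and 115.3 ± 4.34 CPM in shCON (SD, n = 3 each; edgeR adjusted p = 0.54 and 0.74). RB1 itself fell by 3.43 on the log2 scale. Without shRB 2 the median of these 3 genes was 0.08, against -0.06 with all libraries.

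Among the cyclins, kinases, inhibitors and turnover factors that act on RB or on E2F proteins, 17 of 20 were tested, and 10 were higher, 1 lower and 6 not called (median 0.32), against 12.8% higher and 12.5% lower among all tested genes. CDKN1A, which encodes the inhibitor p21, rose by 1.38 ± 0.07 and CDK2 by 0.71 ± 0.09. CCNA2, whose cyclin A2 binds E2F1 to E2F3 and ends their DNA binding, rose by 0.57 ± 0.10 (log2 fold change ± SE; the highest edgeR adjusted p was 0.0011). CCNF and SKP2, whose products direct destruction of E2F proteins, were at 0.32 ± 0.09 and 0.32 ± 0.11 (edgeR adjusted p = 0.024 and 0.049). CDKN1B, which encodes the inhibitor p27, was the gene that fell, by 0.34 (SE 0.08; edgeR adjusted p = 0.0069). CCNE1 rose by 0.57 ± 0.10 (edgeR adjusted p = 0.0011), whereas its paralog CCNE2 was at 0.02 ± 0.12 (edgeR adjusted p = 0.93). The last 5 genes were singled out with their values in view. Without shCON 1, 6 members of this list passed as higher.

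In the DREAM and MuvB list, whose complex carries E2F4 or E2F5 with p107 or p130, 7 of 8 were tested, and 2 were higher, 1 lower and 4 not called (median 0.22, and 0.08 without shRB 2), against 12.8% higher and 12.5% lower among all tested genes. At this length of list, 1 lower gene is close to that share. The 2 higher genes were 28.6% of the 7 tested, and the difference from 12.8% was not tested. The mitotic activators FOXM1 (0.67 ± 0.09) and MYBL2 (0.61 ± 0.11) rose, and DYRK1A, the kinase that triggers DREAM assembly, fell by 0.50 (SE 0.08; the highest edgeR adjusted p of the 3 was 0.0015). On chromosome 21, where DYRK1A lies, the median log2 fold change over 123 tested genes was -0.38. None of the 9 tested members of PRC1.6, the complex that holds E2F6, passed in edgeR (median 0.08), 2 of them having an unadjusted p under 0.05, and 0.26 ± 0.09 for the chromatin reader gene L3MBTL2 was the nearest to passing (edgeR adjusted p = 0.051, chosen after its values were seen). In other fits up to 3 of them passed as higher.

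Of 8 tested genes that E2F1 is known to induce in apoptosis, 1 was higher, 0 lower and 7 not called (median 0.06). This is 12.5% higher, close to the 12.8% of all tested genes, and so no result about the list. The called gene was BBC3, which encodes PUMA, at 9.50 ± 0.35 CPM in shRB and 6.85 ± 1.14 CPM in shCON (SD, n = 3 each; edgeR adjusted p = 0.026). No gene of this list passed with DESeq2, without shRB 3 or without shCON 1, and 3 passed without shRB 2 or with the GC offset. The germline genes that E2F6 represses in mouse were nearly silent in both groups: only STAG3, a meiotic cohesin gene, had enough counts to be tested, at 3.79 ± 0.68 CPM in shRB and 3.23 ± 0.32 CPM in shCON (SD, n = 3 each; edgeR adjusted p = 0.36), and the other 5 were under 1 CPM on average.

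**Figure D4:**
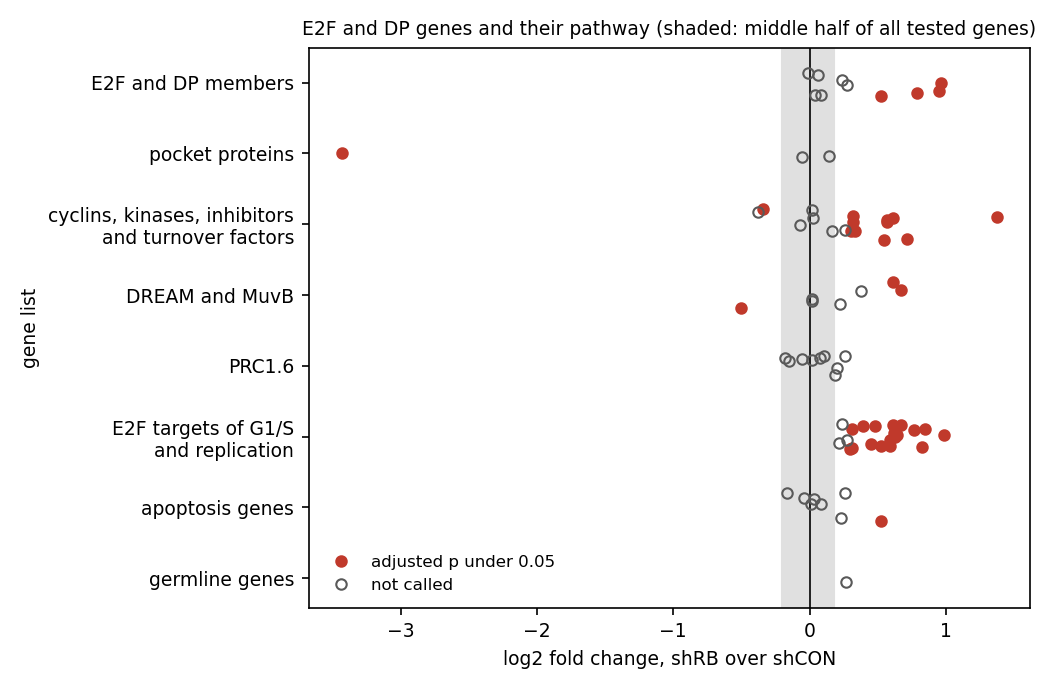
Log2 fold change of shRB over shCON for every tested gene of the E2F and DP family and of 7 pathway lists. Each point is 1 gene, filled where the adjusted p was under 0.05, and the shaded band is the interquartile range of all tested genes. The targets of G1/S and replication lie to the right of the band, and the point at -3.43 is RB1.

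E2F1, E2F2, E2F7 and E2F8 passed in all 15 alternatives, with log2 fold changes of 0.43 to 0.59 for E2F1, 0.80 to 1.12 for E2F2, 0.77 to 1.18 for E2F7 and 0.67 to 0.87 for E2F8. E2F4 passed in 1 of 15, and E2F6, always positive at 0.21 to 0.34, in none. Over all tested genes, 863 to 2308 were called higher in these alternatives. The share of all tested genes that passed in every alternative is not given here, so passing throughout is not shown to be particular to these members.

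**Figure D5:**
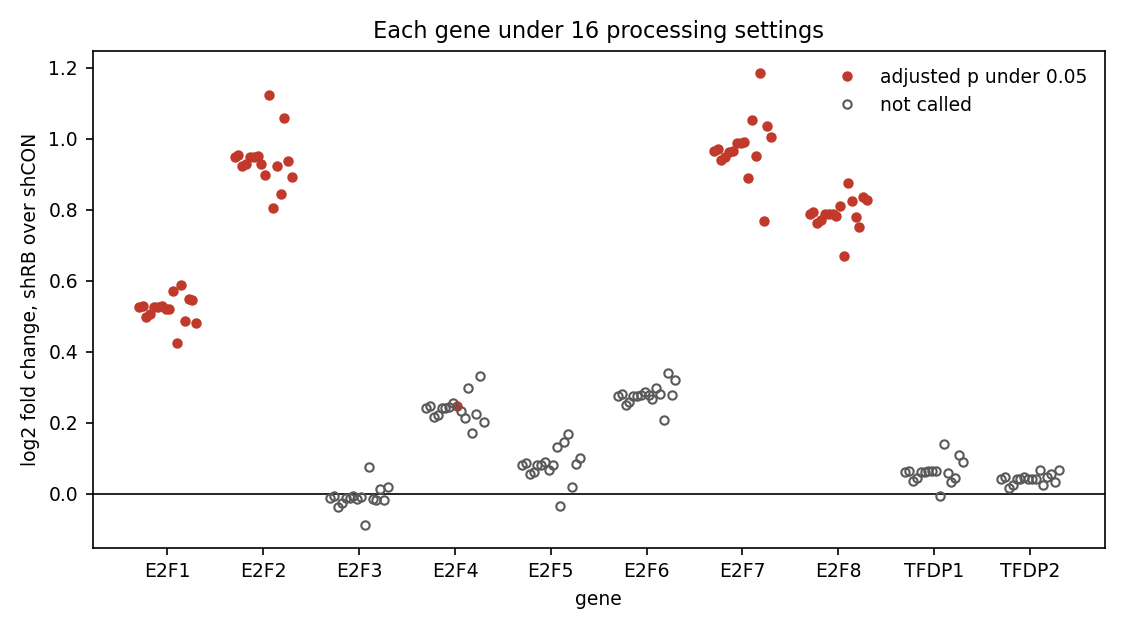
Log2 fold change of each gene under 16 settings, made of the fit as reported and 15 alternatives. Filled points passed an adjusted p of 0.05 under that setting. E2F1, E2F2, E2F7 and E2F8 are filled throughout and lie above 0.42, and E2F4 is filled once.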

How the data were processed

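Total RNA of LNCaP cells was prepared with the TruSeq RNA kit, per the labels' protocols, giving 6 libraries. The deposited table holds unnormalized counts, as whole numbers, for each Ensembl transcript ID in each library. The submitters' processing notes name STAR, HOMER, edgeR and hg19. No annotation, counting option or strand setting is given in the sources used here, so overlapping genes and near-identical copies may share reads.

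Of 22279 IDs, 22182 matched GENCODE release 29, which describes another build and was used for names, chromosomes, lengths, GC content and exon overlap. Genes were kept by filterByExpr (minimum count 10 and total 15), scaled by TMM factors and tested by edgeR 4.0.16 (glmQLFit, glmQLFTest; R 4.3.3) on group alone. P-values were adjusted over all tested genes by Benjamini-Hochberg, with a threshold of 0.05. The SE of a log2 fold change is its size over the square root of F. Ratios used a pseudocount of 0.5 on the counts. Alternatives were DESeq2 1.42.0, limma-voom (limma 3.58.1), other normalizations and filters, a threshold of 0.01, the replicate number as a block and each library left out, and a GC offset (lowess span 0.3) was added after seeing the data. The script was tested on simulated counts. Members, lists and tests were chosen with earlier results of these data known. Genes named were all members, RB1, every called gene of a list (the 3 of smallest p where more than 5 were called; all genes of a list of 3), and the 3 nearest profiles of each called member, of which 1 had no gene name. CCNF, SKP2, CDKN1B, CCNE1, CCNE2, L3MBTL2 and STAG3 were named outside this rule, after their values were seen. Listed genes without a row were not analysed here.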

Additional observations from a re-analysis of the deposited data

How the results depend on the processing

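The number of members called, 4 higher and 0 lower, was the same in every alternative except the replicate block, where E2F4 made it 5. Direction changed in uncalled members: leaving out 1 library gave -0.089 to 0.074 for E2F3, -0.033 to 0.17 for E2F5 and -0.0066 to 0.14 for TFDP1, and the GC offset gave 0.020 for E2F3. Counts over all genes, 1499 higher and 1459 lower, were 863 to 2074 higher and 912 to 1956 lower with 1 library left out (863 and 912 without shCON 1, 969 and 964 without shCON 3), 2308 and 2255 with the GC offset, and 787 and 793 at a threshold of 0.01. Same-numbered libraries had correlations of deviations of 0.24, 0.35 and -0.0003 for replicates 1, 2 and 3. Libraries shRB 1 and shRB 2 each correlated best with the shCON library of their own number. By contrast, shRB 3 correlated best with shCON 1 (0.27), and shCON 3 did not correlate best with shRB 3. Whether same-numbered libraries were handled together was not tested. The replicate block gave 2202 higher and 2294 lower. Medians of the cyclin and kinase list were 0.27 to 0.34 with 1 library left out, 0.29 with upper quartile factors and 0.29 with the GC offset, and its higher count was 6 to 11. The replication target median was 0.54 to 0.59 with 1 library left out, 0.57 with upper quartile factors and 0.56 with the GC offset, and the DREAM median 0.084 to 0.30 and 0.17. In PRC1.6 the higher count was 1 with DESeq2 size factors, library totals or no filter, 3 with the replicate block, 2 (and 1 lower) with the GC offset and 0 to 1 with 1 library left out; its median was 0.046 to 0.12, and 0.14 with the GC offset. Apoptosis genes called higher were 0 with DESeq2, 3 with the GC offset and 0 to 3 with 1 library left out. The cause of these shifts was not tested. Low counts of E2F2, E2F7 and E2F8 limit their precision.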
